A study of Mus musculus with 12 samples.

Results

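The Hox genes of the developing mouse lower jaw were described across dental epithelium and dental mesenchyme on embryonic days E11.5 and E13.5. Members were all rows of the expression table whose symbol is Hox followed by a cluster letter, a to d, and a paralogue number. This rule gave 37 of the 34347 genes listed: 11 of the HoxA cluster, 9 of HoxB, 8 of HoxC and 9 of HoxD. The rule uses names only. The 12 RNA sequencing libraries came from wild-type C57BL/6 embryos, with 3 libraries in each of the 4 groups of tissue and stage. All groups shared this strain and genotype, and no treatment is given. At the earlier stage mandibles were taken and at the later one tooth germs, and the epithelium was freed from the mesenchyme by dispase digestion, so each group is a piece of tissue with all the cells it holds. Stage therefore cannot be told apart from the piece of jaw dissected. The libraries are labelled as biological replicates but were made from pooled RNA, and how the embryos were divided among the libraries is not given in the sources used here, so p-values measure the spread between these libraries.

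Hox genes encode homeodomain transcription factors that lie in clusters, and they are switched on in an order along the body axis that follows their order on the chromosome. Low paralogue numbers start in the hindbrain and the pharyngeal arches behind the jaw, and high numbers are used in the trunk, the limbs and the tail. The first pharyngeal arch, which makes the jaw and its teeth, is formed by neural crest that is known for lacking Hox expression, and Hoxa2 is the gene that gives the second arch its identity. Hox proteins bind DNA together with TALE homeodomain cofactors of the Pbx and Meis families. Here paralogues 1 to 3 (8 genes) are called anterior, 4 to 8 (15 genes) central and 9 to 13 (14 genes) posterior.

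Each library held 70134554 to 79349382 deposited counts. Expression levels are given as FPKM, fragments mapped to a transcript scaled by its length and by sequencing depth, which can be compared between genes. In every library the value 4 was more frequent among low counts than 2, 3 or 5. In most libraries the value 1 was more frequent still. On the assumption of about 4 counts per read pair, 12 counts were taken as about 3 read pairs. These 12 counts were used as the limit of detection of a library. Epithelial markers set the labelled tissues apart, with all 10 on the list called higher in epithelium at E11.5 and 9 of 10 at E13.5. None of the 10 mesenchymal markers was called lower in epithelium at either stage. At E11.5 3 of them passed the edgeR adjusted p of 0.05 alone, and at E13.5 0 did. The separation was not complete, and 2 epithelium libraries stood apart. At E13.5, the library labelled replicate 3 held 162 FPKM of the keratin Krt14 against 575 and 920 in replicates 1 and 2, and 1043 FPKM summed over 10 mesenchymal genes against 407 and 261. At E11.5, replicate 3 held 57.2 FPKM summed over 12 neuronal genes against 211 and 212 in the other epithelium libraries, and it carried posterior Hox transcripts that are described further on. Results that rest on these 2 epithelium libraries are given with and without them. Both have a library name without a number, as does mesenchyme replicate 1 at either stage. In every group this library differed most from the others. In E11.5 mesenchyme the median difference over 9755 genes was 10.8% and 12.2% with replicate 1 and 4.79% without it. At E13.5 it was 12.6% and 15.4% with replicate 1 and 6.51% without it. What the missing number stands for is not given. A covariate for it was fitted only as an alternative, and its calls are given further on. In these bulk samples a smaller number of cells of a type and less RNA per cell cannot be told apart.

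Promoter sequences are shown for 5 members that mark the patterns described here: Hoxa2, with the highest mean level, Hoxa5 and Hoxc4, which were higher in both tissues at E13.5, Hoxd8, the highest HoxD gene at E13.5, and Hoxd13, which was found in 1 library. The sequences are RefSeq promoters on mouse build GRCm38.p6, 250 bases before to 50 bases after a transcription start, read in the direction of the gene, with CpG dinucleotides in capitals because these are the sites where DNA methylation acts. Such sequences were matched by symbol for 22 of the 37 genes. Hoxa2 lies at chr6:52164782-52165081 on the minus strand, Hoxa5 at chr6:52204538-52204837 on the minus strand, Hoxc4 at chr15:103034145-103034444, Hoxd8 at chr2:74704365-74704664 and Hoxd13 at chr2:74667975-74668274, the last 3 on the plus strand.
Hoxa2: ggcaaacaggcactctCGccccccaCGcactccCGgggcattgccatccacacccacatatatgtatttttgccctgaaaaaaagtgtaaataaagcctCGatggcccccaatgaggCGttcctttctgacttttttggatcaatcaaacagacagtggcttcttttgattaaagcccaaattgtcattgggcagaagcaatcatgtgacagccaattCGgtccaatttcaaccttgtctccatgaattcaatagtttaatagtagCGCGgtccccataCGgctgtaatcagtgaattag
Hoxa5: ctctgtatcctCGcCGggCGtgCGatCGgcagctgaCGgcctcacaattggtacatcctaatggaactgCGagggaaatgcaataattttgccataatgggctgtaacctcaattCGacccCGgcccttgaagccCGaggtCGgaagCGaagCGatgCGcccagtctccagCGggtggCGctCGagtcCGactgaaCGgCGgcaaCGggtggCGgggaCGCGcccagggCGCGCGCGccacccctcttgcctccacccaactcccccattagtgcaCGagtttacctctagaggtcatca
Hoxc4: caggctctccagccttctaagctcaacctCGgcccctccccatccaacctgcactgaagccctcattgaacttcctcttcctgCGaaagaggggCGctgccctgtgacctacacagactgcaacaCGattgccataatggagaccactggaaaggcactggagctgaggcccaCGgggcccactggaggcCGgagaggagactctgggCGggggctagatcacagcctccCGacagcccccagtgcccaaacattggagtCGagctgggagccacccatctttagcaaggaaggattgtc
Hoxd8: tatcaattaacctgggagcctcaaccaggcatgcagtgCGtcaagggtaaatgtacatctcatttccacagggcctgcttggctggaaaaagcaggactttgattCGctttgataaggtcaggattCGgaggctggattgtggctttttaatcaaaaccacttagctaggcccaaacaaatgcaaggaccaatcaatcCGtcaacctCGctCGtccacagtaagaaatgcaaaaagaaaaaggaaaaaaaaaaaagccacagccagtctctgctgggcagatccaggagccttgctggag
Hoxd13: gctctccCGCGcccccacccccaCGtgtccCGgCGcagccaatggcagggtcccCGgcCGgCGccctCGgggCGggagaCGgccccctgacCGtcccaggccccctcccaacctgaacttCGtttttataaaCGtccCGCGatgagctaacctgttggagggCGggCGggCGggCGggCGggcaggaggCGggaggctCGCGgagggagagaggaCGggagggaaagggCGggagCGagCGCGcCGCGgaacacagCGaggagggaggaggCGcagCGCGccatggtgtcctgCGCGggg
The 5 windows held 9, 29, 9, 6 and 37 CpG dinucleotides in that order, and the Hoxd13 window lay at percentile 94.4 of the 32851 mouse promoters in the table. The 24 Hox windows had a median of 14.5 CpG and all promoters a median of 7. The motif TGATNNAT, a composite site bound by Pbx and Hox proteins together, was searched on both strands and was present in 4 of the 24 Hox windows (16.7%), those of Hoxa2, Hoxb1, Hoxb8 and Hoxd11, and in 8.85% of all promoters. The TATA box letters TATAAA, on either strand, were also present in 4 Hox windows, Hoxa10, Hoxb8, Hoxd4 and Hoxd13, and in 13.6% of all promoters, so that only the Hoxb8 window held both motifs. These matches describe the letters alone.

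The Hox genes were close to silent in E11.5 mesenchyme and low in the other groups. Summed over the 37 genes, the Hox level was 2.43 ± 0.657 FPKM in E11.5 mesenchyme (SD, n = 3) and 22.5 ± 3.7 in the epithelium of that stage. At E13.5 the sum was 29 ± 3.36 FPKM in epithelium and 29.7 ± 10.8 in mesenchyme. The E11.5 mesenchyme libraries held 1.72, 3.01 and 2.57 FPKM in replicates 1 to 3. All other libraries held more, from 18.6 FPKM in E13.5 mesenchyme replicate 1 to 40.1 in replicate 3 of that group. Even the highest sum was 0.137 per 1000 of the library's total FPKM. For comparison, the 18 jaw homeobox genes, the Dlx, Msx, Pitx, Barx and related factors that pattern the first arch, summed to between 551 and 764 FPKM in E11.5 mesenchyme.

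The number of Hox genes with a group mean of 1 FPKM or more was 1 in mesenchyme and 4 in epithelium at E11.5, and 7 in mesenchyme and 10 in epithelium at E13.5. Of all genes listed, 36.4% to 38.4% passed that level, against 2.7% to 27% of the Hox genes. The single gene in E11.5 mesenchyme was Hoxa2, at 1.05 FPKM, and it fell under the level when replicate 2 was left out. In E11.5 epithelium the 4 genes were Hoxa2, Hoxb2, Hoxb3 and Hoxd13, of which Hoxd13 passed through replicate 3 alone. In E11.5 mesenchyme 15 of the 37 genes had no count in any of the 3 libraries, 8 of them posterior, and only 6 reached 12 counts in every library. For a gene at 0 the floor of 12 counts sets the lowest level that these libraries could show.

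**Figure D1:**
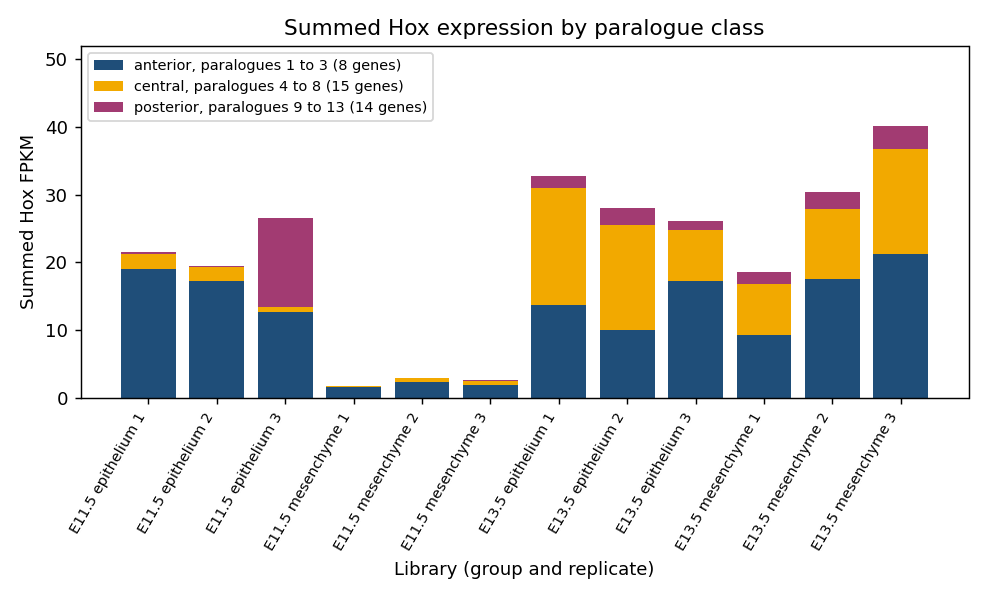
Summed FPKM of the 37 Hox genes in each of the 12 libraries (bars), divided into anterior, central and posterior paralogues. The E11.5 mesenchyme bars end at 1.72 to 3.01 FPKM, all other bars at 18.6 or more, and only E11.5 epithelium replicate 3 has a large posterior share.

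Most of the E11.5 signal came from anterior genes, and central genes made up more of it at E13.5. Anterior genes summed to 16.3 ± 3.26 FPKM and central genes to 1.68 ± 0.828 in E11.5 epithelium (SD, n = 3). In E13.5 epithelium anterior genes summed to 13.7 ± 3.61 FPKM, and central genes to 17.3, 15.6 and 7.59 FPKM in replicates 1 to 3. In E13.5 mesenchyme the anterior and central sums were 16.1 ± 6.14 and 11.1 ± 4.03 FPKM, against 1.96 ± 0.427 and 0.398 ± 0.227 at E11.5. By cluster, HoxA held most of the E11.5 epithelium sum, 14.1 ± 0.738 FPKM, whereas HoxD led in E13.5 mesenchyme with 15.5 ± 4.75 FPKM. No test was run on these sums.

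**Figure D2:**
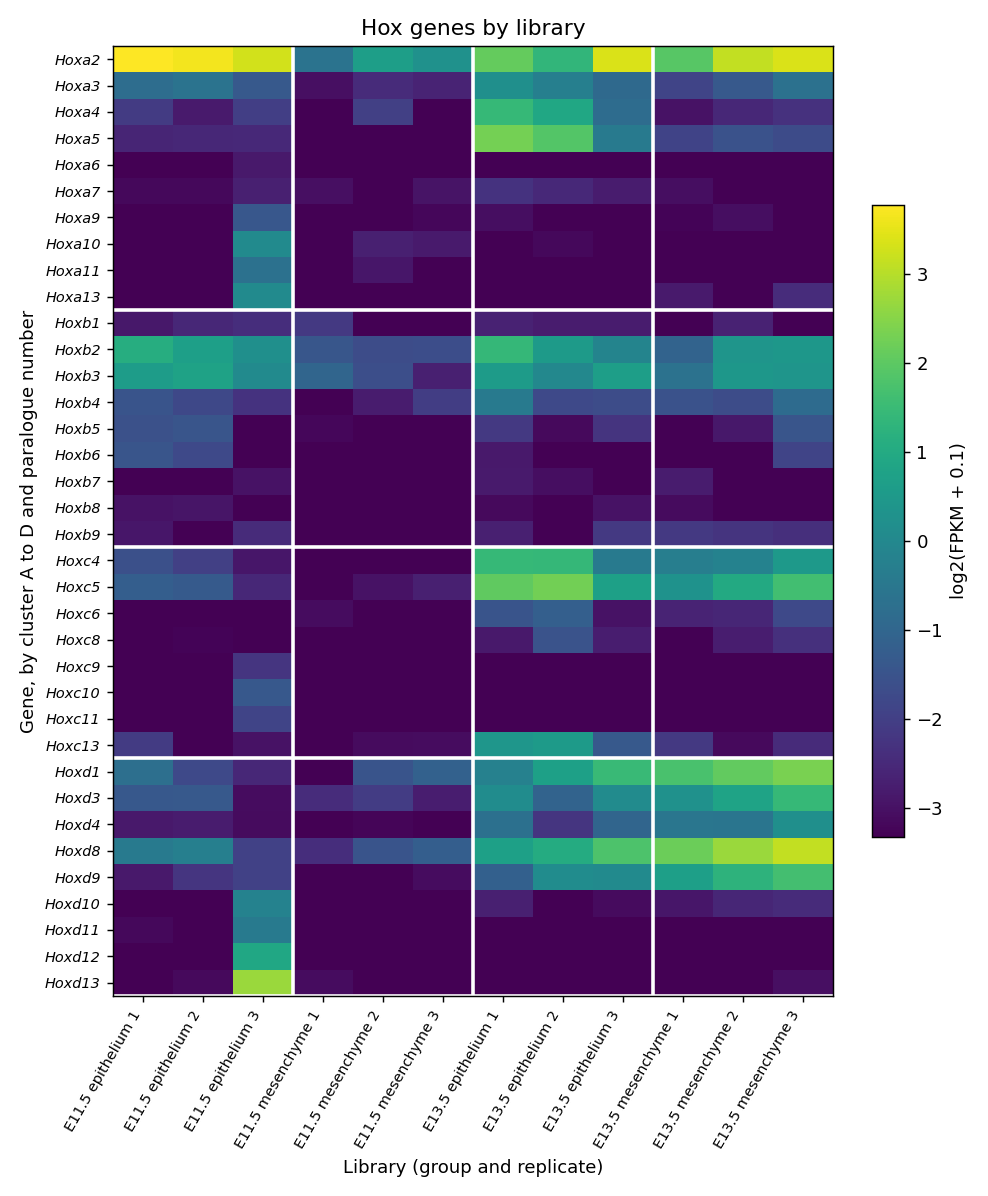
Heat map of log2(FPKM + 0.1) for 36 of the 37 Hox genes (rows, by cluster and paralogue number) in 12 libraries (columns, 3 replicates in each of 4 groups). Hoxa2 is the brightest row, the E11.5 mesenchyme columns are nearly dark, and a block of posterior genes stands out in E11.5 epithelium replicate 3 alone.

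The levels in the 2 tissues at E11.5, before the tooth bud forms, were compared first. Of the 8 anterior Hox genes 4 were called higher in the epithelium, and no central or posterior gene was. Hoxa2 was measured at 13.6, 12.4 and 9.73 FPKM in epithelium replicates 1 to 3 and at 0.556, 1.47 and 1.11 FPKM in mesenchyme replicates 1 to 3. The groups did not overlap, and the fitted difference was 11.8-fold (log2 fold change 3.57 ± 0.32 SE, edgeR adjusted p = 0.000745). In every library of both E11.5 groups Hoxa2 was the highest Hox gene. Its level lay at the percentile 86.6 to 89.7 of all listed genes in epithelium and at 59.4 to 66.4 in mesenchyme.

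Hoxb2, the other paralogue 2 gene, which acts in hindbrain segments and facial motor neurons, was measured at 2.04, 1.5 and 1.07 FPKM in epithelium and at 0.276, 0.212 and 0.218 FPKM in mesenchyme. This 6.62-fold difference passed the test (log2 fold change 2.73 ± 0.30 SE, edgeR adjusted p = 0.00196). All epithelium libraries lay above all mesenchyme libraries. Hoxa3, which acts in the third arch, thymus and parathyroid, was measured at 0.48, 0.554 and 0.293 FPKM against 0.0218, 0.0823 and 0.0639 FPKM (log2 fold change 3.04 ± 0.48 SE, edgeR adjusted p = 0.00995). Its gene model spans Hoxa4, Hoxa5 and Hoxa6 on the same strand, so reads may be shared with them.

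A call was an edgeR adjusted p under 0.05 with a log2 fold change no smaller than 1. Hoxa2, Hoxb2 and Hoxa3 were among the 4 of 37 Hox genes called higher in E11.5 epithelium. The share is 10.8% of members, beside 3.67% of the 20063 genes tested. Only 14 of the 37 passed the filter on low counts, which drops genes counted in too few libraries. No Hox gene was called lower, beside 0.493% of all genes, none had an unadjusted edgeR p under 0.05 in that direction and DESeq2 called none lower. Hoxb3 stood at 1.43, 1.59 and 0.963 FPKM in epithelium and at 0.402, 0.224 and 0.0531 FPKM in mesenchyme, without overlap, but missed the threshold (edgeR adjusted p = 0.0581). Hoxa5 was listed at 0 in the mesenchyme and at 0.0653, 0.0714 and 0.0774 FPKM in epithelium (edgeR adjusted p = 0.0566), which is at least 1.04-fold the floor of 12 counts per library.

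Several marker lists also differed between the tissues. All 10 epithelial markers, 2 of 8 Schwann and glial markers and 1 of 10 macrophage and leukocyte markers were called higher in epithelium, and none of these lower. The 12 neuronal genes summed to 57.2 to 212 FPKM in E11.5 epithelium and to 20.5 to 28.8 FPKM in mesenchyme, none was at 0, and 8 of 12 were called higher in epithelium. Within epithelium the neuronal sums were 211, 212 and 57.2 FPKM in replicates 1 to 3, beside Hoxa2 at 13.6, 12.4 and 9.73 FPKM. The part of these lists in the Hox difference was not tested. Of the 12 hindbrain and spinal cord markers 2 were called higher in epithelium, and the list summed to 4.06 to 6.26 FPKM there and to 2.23 to 2.62 FPKM in mesenchyme, where Chat and Pax8 were at 0. When epithelium replicate 3 was left out, 8 Hox genes were called higher, the same 4 with Hoxb3, Hoxb5, Hoxb6 and Hoxc4. The share of all genes called in that fit is not given here, so the larger count is not a result about Hox genes. Hoxa2, Hoxb2 and Hoxa3 stayed called when any 1 library was left out.

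**Figure D3:**
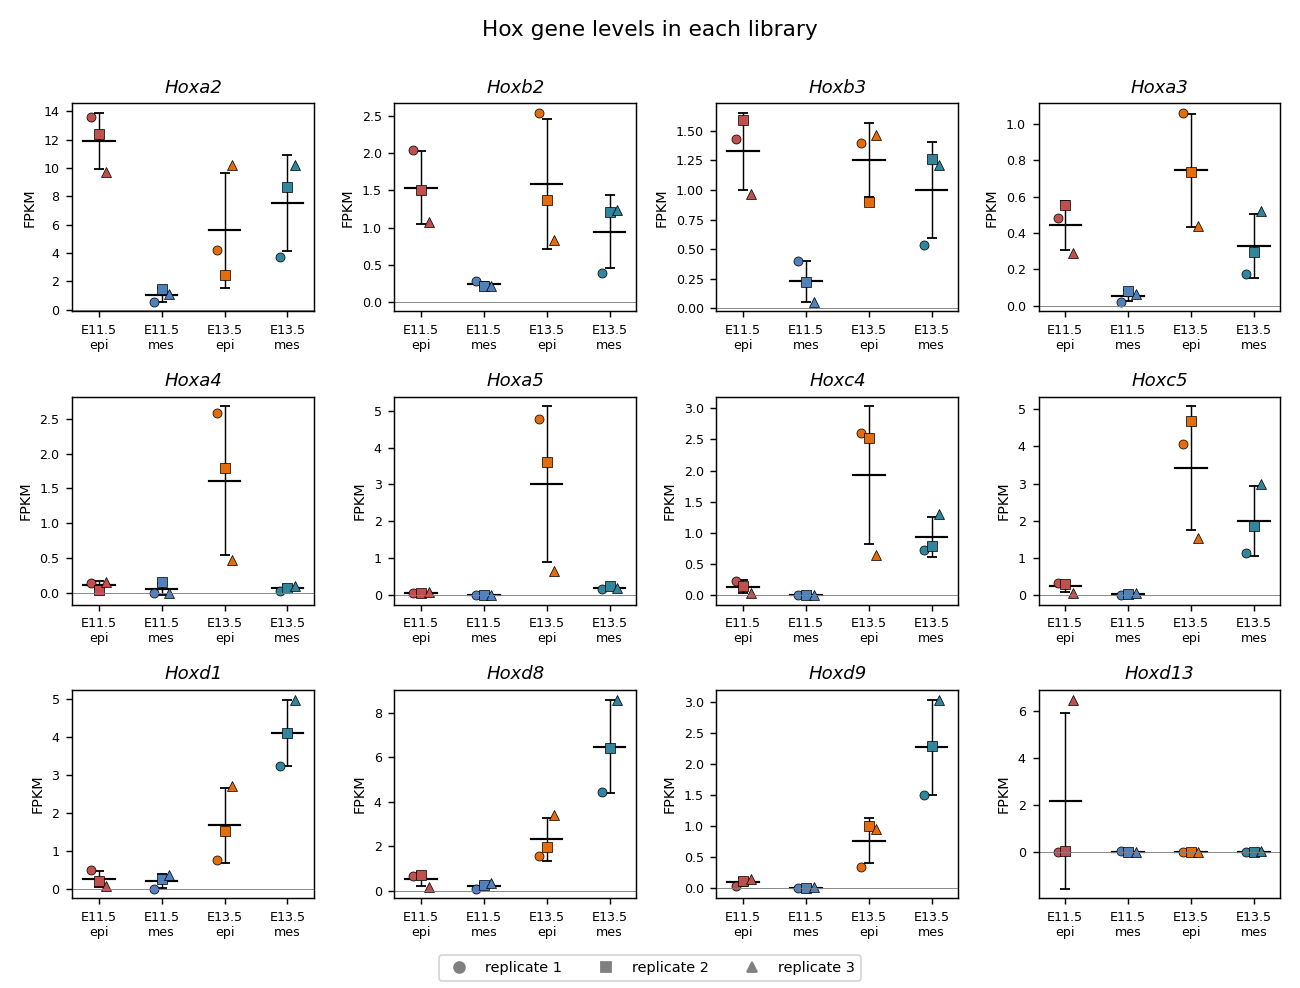
FPKM of 12 Hox genes in each library (points, shape by replicate), with the group mean (horizontal line) and SD (error bar, n = 3), for epithelium (epi) and mesenchyme (mes) at 2 stages on linear axes that differ between panels. Hoxa2 falls to 0.556 to 1.47 FPKM in E11.5 mesenchyme, and Hoxd13 lies near 0 in all libraries but E11.5 epithelium replicate 3, where it is 6.47 FPKM.

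Between E11.5 and E13.5 the mesenchyme, which takes over the capacity to direct tooth formation in this period, gained expression of Hox genes from all 4 clusters. Of the 37 genes 15 were called higher at E13.5 (40.5%), beside 13.1% of the 20271 genes tested, and 17 passed the filter on low counts. No member was called lower by edgeR or DESeq2, beside 3.09% of all genes, none had an unadjusted edgeR p under 0.05 in that direction, and all genes tested had a median log2 fold change of 0.01. Some of these genes, such as Hoxa5, Hoxb9 and Hoxc4, had no count at E11.5, so only a lower bound of their rise can be given.

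Hoxa2 rose from 0.556, 1.47 and 1.11 FPKM to 3.72, 8.69 and 10.2 FPKM in replicates 1 to 3. The E13.5 libraries all lay above the E11.5 libraries (7.08-fold, log2 fold change 2.82 ± 0.43 SE, edgeR adjusted p = 0.0011). Hoxd8, a central gene that lies between Hoxd9 and Hoxd4, rose from 0.091, 0.26 and 0.335 FPKM to 4.42, 6.42 and 8.6 FPKM, a 28-fold change (log2 fold change 4.81 ± 0.42 SE, edgeR adjusted p = 6.95e-05). At E13.5 it was the second highest Hox gene of the mesenchyme by mean, at 6.48 ± 2.09 FPKM (SD, n = 3). Hoxd1, the most anterior HoxD gene, rose from 0, 0.259 and 0.364 FPKM to 3.23, 4.12 and 4.99 FPKM (19.9-fold, edgeR adjusted p = 0.0036).

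Hoxd9 was counted in 1 of the 3 E11.5 mesenchyme libraries, with 3 counts, and reached 1.5, 2.29 and 3.04 FPKM at E13.5. The ratio of read pairs was 320, with an exact 95% interval for counting error from 57.1 to 12688, and the change passed the test (edgeR adjusted p = 5.03e-05). Hoxd4 was likewise counted 3 times in all at E11.5 and stood at 0.593, 0.577 and 1.05 FPKM at E13.5, with a ratio of 145 (interval 25.6 to 5767, edgeR adjusted p = 0.000201). Both genes thus went from the edge of detection to a level seen in every library. Hoxd3 rose from 0.0883, 0.142 and 0.0493 FPKM to 1.11, 1.64 and 2.58 FPKM (17.7-fold, edgeR adjusted p = 0.000176). The gene models of Hoxd3 and Hoxd4 overlap on the same strand, and reads in the shared part could be given to either.

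Hoxc4 had no count in the 3 E11.5 mesenchyme libraries and stood at 0.722, 0.785 and 1.3 FPKM at E13.5, which is at least 17.5-fold higher when the E11.5 group is set to 12 counts per library (edgeR adjusted p = 0.000101). Hoxc5 rose from 0, 0.0282 and 0.0553 FPKM to 1.13, 1.87 and 2.98 FPKM (64.2-fold, edgeR adjusted p = 0.000394). Its gene model spans Hoxc6, Hoxc8, Hoxc9 and Hoxc10, so reads may be shared with them. Hoxa5, a central gene needed in the lung and trachea, had no count at E11.5 and was measured at 0.167, 0.248 and 0.205 FPKM at E13.5, at least 2.88-fold higher (edgeR adjusted p = 0.00216). Hoxb9 showed 0 against 0.127, 0.109 and 0.0923 FPKM, at least 2.1-fold higher (edgeR adjusted p = 0.00373). It was the only posterior gene besides Hoxd9 to be called.

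Among the remaining called genes were anterior HoxA and HoxB genes and Hoxc6. Hoxb2 rose 3.85-fold to 0.383, 1.21 and 1.24 FPKM (edgeR adjusted p = 0.00803), and Hoxa3 rose 5.8-fold to 0.174, 0.296 and 0.521 FPKM (edgeR adjusted p = 0.00688). Hoxb3 rose 4.22-fold to 0.536, 1.26 and 1.21 FPKM (edgeR adjusted p = 0.0307). Hoxc6 went from 4 counts in all to 0.0622, 0.07 and 0.196 FPKM (edgeR adjusted p = 0.0344). Hoxb4, with 0, 0.0443 and 0.144 against 0.243, 0.211 and 0.455 FPKM, did not pass (edgeR adjusted p = 0.113), and neither did Hoxa4 (adjusted p = 0.857).

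Within the E13.5 mesenchyme group, replicate 1 was lowest and replicate 3 highest in summed Hox level, at 18.6, 30.4 and 40.1 FPKM. Skeletal muscle markers followed the same order, at 232, 370 and 465 FPKM summed over 10 genes, as did macrophage and leukocyte markers at 28.6, 58.7 and 69.1 FPKM, with no marker of either list at 0. Muscle markers had summed to 21.2 to 71.1 FPKM in E11.5 mesenchyme, and 9 of 10 were called higher at E13.5, as were 9 of 10 macrophage markers and 5 of 8 Schwann and glial markers. Neuronal markers, of which 4 of 12 were called higher, summed to 20.5 to 28.8 FPKM at E11.5 and to 36.7, 41.1 and 67.3 FPKM in E13.5 replicates 1 to 3, again in the order of the Hox sums. Also called higher were 4 of 10 epithelial markers, with sums of 22.5 to 27.7 FPKM at E11.5 and 78.8 to 120 at E13.5. Of the limb and trunk mesoderm markers 3 of 10, Wt1, Tbx5 and Pax1, were called higher and 1 lower, while the list summed to 23.3 to 35.3 FPKM at E11.5 and to 20.8 to 27.8 at E13.5, with Uncx at 0 there. The order of the Hox sums was also that of the Schwann and glial, endothelial, limb and trunk mesoderm and pharyngeal endoderm sums. It was that of total FPKM as well, at 250854, 275101 and 292827 in E13.5 mesenchyme replicates 1 to 3. The epithelial, mesenchyme, erythroid and hindbrain and spinal cord sums did not follow it. Replicate 1 is also the library of this group whose name carries no number. The part of these lists in the Hox rise was not tested. Between 12 and 17 Hox genes were called higher when any 1 library was left out. Hoxb3 and Hoxc6 were among the calls lost in some of these fits, with adjusted p of at most 0.103 and 0.153. Without E11.5 mesenchyme replicate 1, Hoxa10 was called lower (edgeR adjusted p = 0.0307), from 16 and 12 counts in the other E11.5 libraries to no count at E13.5.

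Epithelium also changed between the stages, with Hoxa4, Hoxa5, Hoxc4, Hoxc5, Hoxd4 and Hoxd9 called higher at E13.5. Of the 37 genes 6 were called higher (16.2%), beside 4.27% of the 20467 genes tested, and 21 passed the filter. No member was called lower by edgeR or DESeq2, beside 1.29% of all genes, and none had an unadjusted edgeR p under 0.05 in that direction. Hoxa5 went from 0.0653, 0.0714 and 0.0774 FPKM to 4.76, 3.6 and 0.664 FPKM, a 39.9-fold change (log2 fold change 5.32 ± 0.76 SE, edgeR adjusted p = 0.0149). The libraries of the stages did not overlap, but E13.5 replicate 3 was several times lower than the other E13.5 libraries. The same shape was seen for Hoxa4, at 0.135, 0.0424 and 0.148 against 2.58, 1.79 and 0.465 FPKM (14.3-fold, edgeR adjusted p = 0.0306). Hoxa4 and Hoxa5 both lie within the gene model of Hoxa3 on the same strand, so reads may be shared with it.

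Hoxc5 rose from 0.337, 0.302 and 0.0718 FPKM to 4.05, 4.67 and 1.54 FPKM (14.1-fold, edgeR adjusted p = 0.0226). Hoxc4 rose from 0.234, 0.154 and 0.0352 FPKM to 2.6, 2.53 and 0.646 FPKM (13.4-fold, edgeR adjusted p = 0.034). In both genes replicate 3 was the lowest library of its stage. The 2 HoxD genes called were Hoxd9, from 0.0407, 0.112 and 0.16 to 0.352, 1 and 0.951 FPKM (edgeR adjusted p = 0.0402), and Hoxd4, from 0.0413, 0.0462 and 0.0144 to 0.509, 0.113 and 0.398 FPKM (edgeR adjusted p = 0.0444). Here replicate 3 was not the lowest E13.5 library.

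Hoxa2 in epithelium was 13.6, 12.4 and 9.73 FPKM at E11.5 and 4.19, 2.43 and 10.2 FPKM at E13.5, so the stages overlapped through replicate 3 (log2 fold change -1.08 ± 0.49 SE, edgeR adjusted p = 0.218). The 12 hindbrain and spinal cord markers were also highest in that library, at 3.54, 0.815 and 10.7 FPKM in E13.5 replicates 1 to 3 with Mnx1 at 0, and their part was not tested. Without E13.5 epithelium replicate 3, the log2 fold change of Hoxa2 was -1.86 ± 0.28 SE and Hoxa2 was called lower (edgeR adjusted p = 0.00717). Hoxb2 and Hoxb3 showed log2 fold changes of 0.03 ± 0.43 and -0.08 ± 0.30 SE, with E13.5 levels of 2.54, 1.37 and 0.829 FPKM and of 1.4, 0.895 and 1.47 FPKM.

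These epithelial calls depended on single libraries. No Hox gene was called without E11.5 epithelium replicate 1, without E11.5 epithelium replicate 2 or without E13.5 epithelium replicate 1. Without E13.5 epithelium replicate 2 the calls were Hoxa5, Hoxc5 and Hoxd4, and without E11.5 epithelium replicate 3 they were Hoxa5, Hoxc4, Hoxc5 and Hoxd9. Leaving out E13.5 epithelium replicate 3, which is the library with the low keratin and high mesenchymal values, gave 9 genes higher, among them all of the 6 but Hoxd4. Leaving out replicate 3 at both stages, a choice made after seeing the data, gave 11 higher. The shares of all genes called in these fits are not given here. The 6 log2 fold changes stayed positive in all these fits. Of the epithelial markers 4 of 10 were also called higher at E13.5, the keratins Krt5, Krt14, Krt15 and Krt17, and the list summed to 228 to 282 FPKM at E11.5 and to 2241, 3305 and 657 FPKM in E13.5 replicates 1 to 3. Its lowest E13.5 library was thus replicate 3, as for Hoxa4, Hoxa5, Hoxc4 and Hoxc5. Skeletal muscle markers summed to 35.9 to 103 FPKM at E11.5 and to 143 to 292 at E13.5, with 3 of 10 called higher, and 5 of 12 neuronal markers were called lower. No marker of these lists was at 0 in either group, and their part was not tested.

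The tissues were compared again at E13.5, the bud stage. The central genes Hoxa4 and Hoxa5 were higher in epithelium, whereas no HoxD gene passed the edgeR test in either direction. Hoxa4 stood at 2.58, 1.79 and 0.465 FPKM in epithelium and at 0.0269, 0.0746 and 0.101 FPKM in mesenchyme (22.4-fold, log2 fold change 4.49 ± 0.77 SE, edgeR adjusted p = 0.0446). Hoxa5 stood at 4.76, 3.6 and 0.664 FPKM and at 0.167, 0.248 and 0.205 FPKM (14.4-fold, log2 fold change 3.85 ± 0.70 SE, edgeR adjusted p = 0.0494). These were the 2 of 37 members called higher (5.41%), beside 1.59% of the 20584 genes tested, and 22 members passed the filter.

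In 5 HoxD genes the level was lower in every epithelium library than in any mesenchyme library, but no such gene passed the test. Hoxd8 was measured at 1.55, 1.98 and 3.4 FPKM in epithelium and at 4.42, 6.42 and 8.6 FPKM in mesenchyme (log2 fold change -1.45 ± 0.36 SE, edgeR adjusted p = 0.0923). Hoxd1 was measured at 0.762, 1.53 and 2.72 FPKM against 3.23, 4.12 and 4.99 FPKM (edgeR adjusted p = 0.165). Hoxd9 was at 0.352, 1 and 0.951 FPKM against 1.5, 2.29 and 3.04 FPKM (edgeR adjusted p = 0.129). With Hoxd3 and Hoxd4 these 5 of the 22 members tested lay lower in epithelium without overlap, beside 17.3% of all genes tested. No member was called lower, beside 0.17% of all genes. In that direction 4 had an unadjusted edgeR p under 0.05, and DESeq2 called Hoxd1, Hoxd8 and Hoxd9 lower. The share of all genes at these 2 thresholds is not given here.

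Hoxa2 overlapped between the tissues at E13.5, at 4.19, 2.43 and 10.2 FPKM in epithelium and 3.72, 8.69 and 10.2 FPKM in mesenchyme (log2 fold change -0.39 ± 0.57 SE, edgeR adjusted p = 0.711). Hoxc13, a posterior gene needed for hair and nail formation, was at 1.22, 1.37 and 0.293 FPKM in epithelium and at 0.128, 0.0142 and 0.0815 FPKM in mesenchyme (log2 fold change 3.64 ± 0.82 SE, edgeR adjusted p = 0.0739). It was the highest posterior gene of E13.5 epithelium, whereas in E13.5 mesenchyme that place belonged to Hoxd9. Leaving out any 1 library other than epithelium replicate 3 left no Hox gene called, with the log2 fold changes of Hoxa4 and Hoxa5 between 3.37 and 4.87 and adjusted p of 0.0854 to 0.218. Without epithelium replicate 3 the calls were 7 higher, among them Hoxa3, Hoxa4, Hoxa5, Hoxc4, Hoxc5 and Hoxc13, and 3 lower, namely Hoxd1, Hoxd8 and Hoxd9. The share of all genes called in that fit is not given here.

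**Figure D4:**
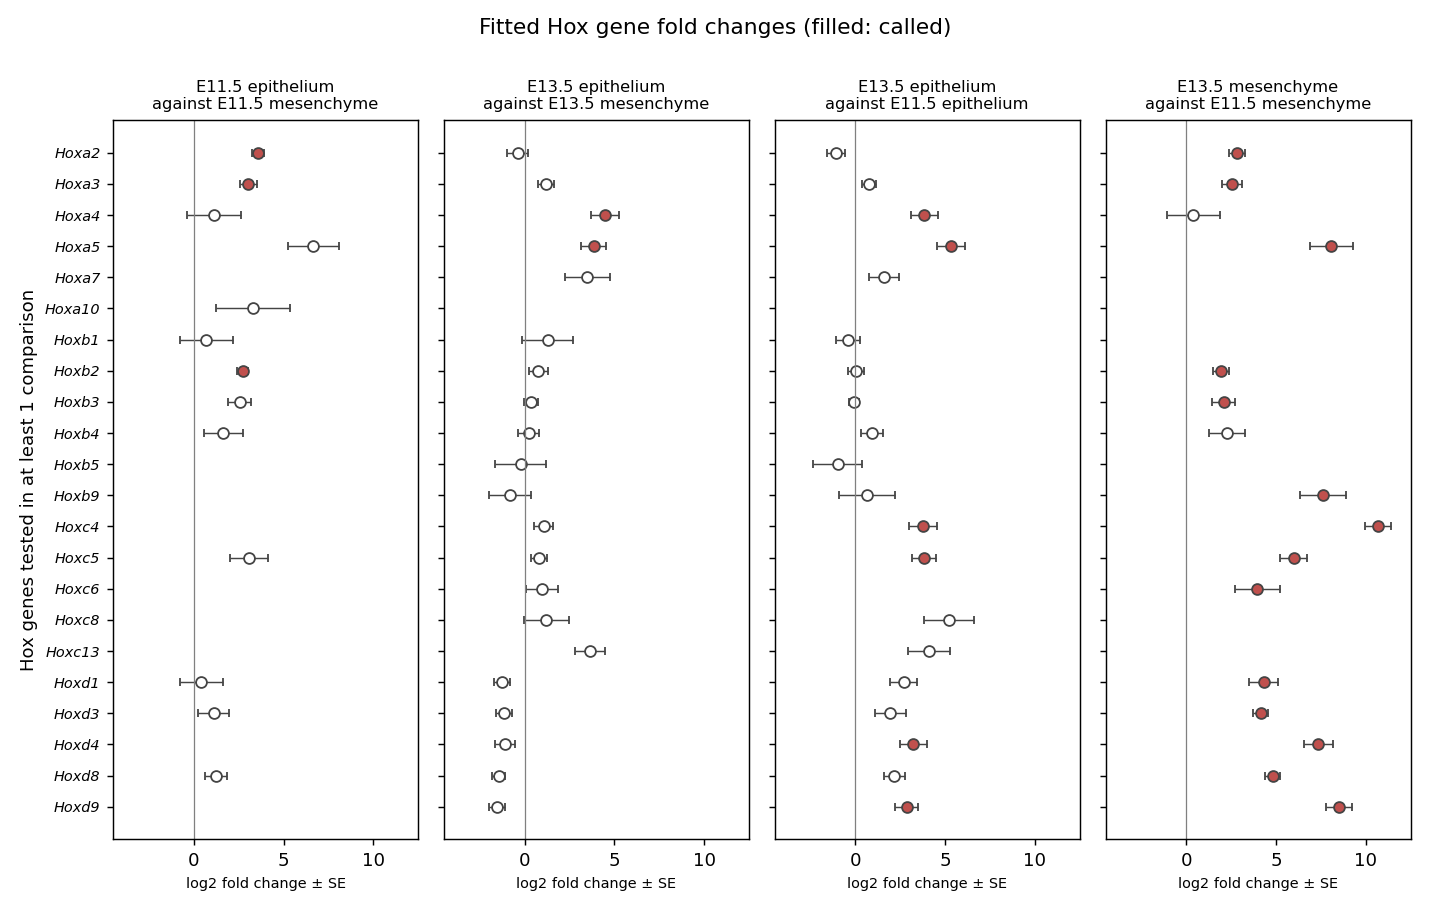
Fitted log2 fold change (x axis, point) with its SE (bar) for 36 of the 37 Hox genes where they passed the count filter, in 4 comparisons of 3 against 3 libraries. Filled points passed an edgeR adjusted p of 0.05 with a log2 fold change no smaller than 1: 3, 2, 6 and 14 of the genes drawn, from left to right. Values over about 6 have a reference group with few or no counts and depend on the prior count of the fit.

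Whether the difference between the tissues itself changed from E11.5 to E13.5 was tested as an interaction over all 12 libraries. No Hox gene passed among 27 tested, beside 0.19% of the 22110 genes called with a lower and 0.0136% with a higher tissue difference at E13.5. Hoxa2, for which the epithelial excess of E11.5 was not seen at E13.5, came nearest (log2 change of the difference -3.94 ± 0.74 SE, edgeR adjusted p = 0.0557). It was followed by Hoxd9 (-5.71 ± 1.09 SE, adjusted p = 0.0601). At an unadjusted edgeR p under 0.05 there were 13 Hox genes, all with a tissue difference lower at E13.5. DESeq2 called 6 of them: Hoxa2, Hoxa13, Hoxc4, Hoxd4, Hoxd8 and Hoxd9. The share of all genes at either threshold is not given here, so neither count is a result about Hox genes as a set. Hoxa13 and Hoxd10, which are among the 13, had 88.2% and 75.4% of their counts in E11.5 epithelium replicate 3 and none in the other E11.5 epithelium libraries. Without E11.5 epithelium replicate 3, edgeR again called 0. Without E13.5 epithelium replicate 3, edgeR called 5, which were Hoxa2 (adjusted p = 0.000964), Hoxc4, Hoxd4, Hoxd8 and Hoxd9. The share of all genes called in that fit is not given here.

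Most posterior Hox genes were found almost only in E11.5 epithelium replicate 3. The summed level of the 14 posterior genes was 13.2 FPKM in that library, 0.219 and 0.125 FPKM in the other E11.5 epithelium libraries and 3.41 FPKM or less in the rest. Hoxd13, which acts in the digits and the genital tubercle, was measured at 6.47 FPKM with 1472 counts there, and at 6 counts or fewer in each of the other 11 libraries. Hoxd12 was measured at 1.78 FPKM with 414 counts and had no count in any other library. Further values in the same library were 0.948 FPKM for Hoxa13, 0.944 for Hoxa10, 0.791 for Hoxd10, 0.651 for Hoxd11 and 0.521 for Hoxa11.

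In all, 10 of the 14 posterior genes, and Hoxa6 with 4 counts, had at least 80% of all their counts in this library. Hoxc9, Hoxc10 and Hoxc11 were counted nowhere else. Hoxd10 had 75.4% of its counts there, 132 against at most 14 in any other library. The other posterior genes, Hoxb9, Hoxc13 and Hoxd9, did not show this pattern. The antisense transcript Hoxa11os followed the pattern at 1.92 FPKM, with at most 0.00743 FPKM in any other library, as did Hottip at 0.453 and Hotair at 0.121 FPKM, the noncoding RNAs of the 5′ HoxA and HoxC clusters. Evx2, the gene beside Hoxd13, was at 0.274 FPKM there and at 0.0413 FPKM or less elsewhere.

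The anterior genes of this library did not stand apart in the same way, with Hoxa2 at 9.73 FPKM beside 13.6 and 12.4. A gene was counted as particular to 1 library when it reached 1 FPKM and at least 8 times its level in every other library, with 0.05 FPKM added to both. By this measure E11.5 epithelium replicate 3 held 7 genes, among them Hoxd12 and Hoxd13, and the other 11 libraries held 0 to 4 genes each and no Hox gene. The same 7 include Scgb1a1 at 29.5 FPKM and Sftpc at 5.61 FPKM, genes of lung epithelium that were noticed after their values were seen. The list of limb and trunk mesoderm markers summed to 17.5 FPKM in this library and to 27.7 and 25.1 FPKM in the other E11.5 epithelium libraries, and the limb genes Tbx5 and Tbx4 stood at 0.0577 and 0.925 FPKM. What these values share with the posterior Hox transcripts was not tested. Since the filter asks for counts in at least 3 libraries, none of these posterior genes except Hoxa10 entered the E11.5 tissue test, where it was not called (edgeR adjusted p = 0.434).

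The remaining members were low throughout. Hoxb1, which marks the fourth hindbrain segment, did not exceed 0.125 FPKM in any library. Hoxa7, Hoxb7 and Hoxb8 stayed at or under 0.107 FPKM, Hoxc8 at or under 0.253 and Hoxb5 and Hoxb6 at or under 0.268. Hoxb5 and Hoxb6 were at 0.238 and 0.264 FPKM in E11.5 epithelium replicate 1 and at 0.266 and 0.195 in replicate 2, but had no count in replicate 3. Hoxa6 was the lowest member, with 4 counts in a single library.

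Noncoding RNAs of the clusters were measured beside the coding genes. Of the 21 noncoding RNAs listed for the Hox clusters 15 were in the table. Hotairm1 was measured at 1.18, 1.4 and 1.35 FPKM in E11.5 epithelium and at 0.0585, 0.194 and 0.206 FPKM in the mesenchyme. Its E13.5 levels were 8.9, 5.51 and 3.16 FPKM in epithelium and 0.523, 2 and 1.37 in mesenchyme. Hotairm1, Hoxaas2 and Hoxb3os were called higher in E11.5 epithelium than in mesenchyme, beside 3.67% of all genes. In mesenchyme 5 were called higher at E13.5, namely Hotairm1, Hoxaas2, Hoxaas3, Haglr and Hoxd3os1. Whether the counting used strand is not given in the sources used here, so overlapping partners such as Hoxa11 and Hoxa11os or Hoxb2 and Hoxb3os cannot be told apart with certainty.

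Genes just outside the clusters included some that were expressed in all libraries. Mtx2, a mitochondrial gene 60661 bases from the HoxD cluster, was at 11.8 to 17.1 FPKM in the 12 libraries, and Lnpk on the other side was at 1.76 to 3.39. Calcoco1 and Cbx5, on either side of HoxC, were at 7.79 to 13.6 and 43.5 to 68.5 FPKM, and Atp5g1 near HoxB at 9.03 to 21.9. Others were low, including Evx1 after HoxA, at most 0.548 FPKM, and Ttll6 and Skap1 around HoxB. Evx1 was highest in E11.5 epithelium, at 0.384, 0.275 and 0.548 FPKM, and was called higher there than in mesenchyme.

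Transcripts of Hox cofactors and of chromatin regulators of Hox loci were measured in every group. The 9 TALE cofactors summed to 97.9 to 135 FPKM per library, led by Pbx2 at 35.7 to 66.5 FPKM. Only Meis1 was called among them, higher in E11.5 epithelium. The 21 Polycomb genes, whose products keep Hox genes silent, summed to 214 to 319 FPKM, and the 10 Trithorax genes, whose products maintain Hox expression, to 151 to 215 FPKM. In mesenchyme 8 Polycomb genes passed an edgeR adjusted p of 0.05 as lower at E13.5 and 5 as higher, of which 2 in each direction also reached a log2 fold change of 1 in size, and the median log2 fold change of the list was -0.12 beside 0.01 for all genes. Ezh2, the Polycomb methyltransferase, was at 35.5 to 39.7 FPKM at E11.5 and 14.9 to 18.7 FPKM at E13.5 in mesenchyme, and 6 of the 10 Trithorax genes passed as lower, none with a log2 fold change of that size.

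Among 9 segmental regulators of Hox genes, which include Egr2 of the hindbrain, 8 were in the table. Egr2 was at 1.88, 2.11 and 2.68 FPKM in E11.5 epithelium and 0.491, 0.67 and 0.497 FPKM in mesenchyme (edgeR adjusted p = 0.00186), and Tfap2a was also called higher in epithelium. In E13.5 epithelium Egr2 was at 0.333, 0.217 and 8.92 FPKM, with replicate 3 apart from the others. The jaw homeobox genes were lower at E13.5 in mesenchyme, where 14 of 18 passed the adjusted p and 4 of them also a log2 fold change of -1, with a median log2 fold change of -0.77. Barx1 and Pitx1 were at 117, 167 and 186 FPKM and at 68.9, 107 and 115 FPKM in E11.5 mesenchyme, and at 58.1, 78.7 and 87.2 and 50.2, 60.6 and 57.7 FPKM at E13.5.

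The other homeobox relatives and marker lists were measured for the cells that these pieces of jaw could hold. Of the 6 ParaHox and Evx genes in the table, the neural genes Evx1 and Gsx1 were called higher in E11.5 epithelium than in mesenchyme, and Gsx1 was called lower in epithelium at E13.5, where it had no count. Mesenchyme markers summed to 505 to 660 FPKM in E11.5 mesenchyme and to 337 to 483 in E11.5 epithelium, and none of the 10 was called. Erythroid markers summed to 1078 to 8716 FPKM over the libraries, and 7 of 10 were called lower in mesenchyme at E13.5. Endothelial markers summed to 16.1 to 115 FPKM, with 1 of 10 called higher in mesenchyme at E13.5. Pharyngeal endoderm markers summed to 7.94 to 20.5 FPKM, with 1 of 9 called higher in E11.5 epithelium, and Nkx2-1 and Gcm2 were at 0 in E11.5 mesenchyme. Of the 10 limb and trunk mesoderm markers 1 was called higher and 1 lower in E11.5 epithelium.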

How the data were processed

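RNA from 12 libraries (4 groups of 3) was sequenced, and adapters were trimmed with Cutadapt 1.9 per the labels. HISAT2 2.0.4, StringTie 1.3.4d and edgeR are named in the submitters' processing notes, with the mouse build mm10. The authors deposited an expression table with 2 kinds of value for each library: estimated counts per gene, which StringTie derives from coverage and which were whole numbers in the file, and FPKM. The table held 0 columns of other samples. Strand use in the counting is not given in the sources used here.

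Deposited estimated counts were tested with edgeR 4.0.16 (filterByExpr, TMM scaling, quasi-likelihood F-test, R 4.3.3), each pair of groups on its 6 libraries and the interaction on all 12, with Benjamini-Hochberg adjustment over all genes tested. Calls needed an adjusted p under 0.05 together with a log2 fold change of 1 or more in size, and in the interaction at the adjusted p alone. The deposited FPKM values gave levels, sums and means ± SD. Depth was 70134554 to 79349382 counts per library, and a group at 0 was set to 12 counts per library. Intervals cover counting error only and rest on the assumption of about 4 counts per read pair. Alternatives used DESeq2 1.42.0, limma 3.58.1 on log2(FPKM + 0.5) and log2(FPKM + 0.1), no filter, replicate blocks and leaving out each library. The tests were checked on simulated data. Figures and tables were made with Python 3.11.15.

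All 37 members entered the counts and sums, and those that passed the filter entered the tests, but 1 member and some other genes are not reported here by name or drawn singly. Library values are given for the 12 members with the highest mean, the highest of each cluster, every other member called, and Hoxb1, with up to 4 genes of each of the other lists. The members and the 18 lists were chosen with earlier results of these data known.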

Additional observations from a re-analysis of the deposited data

Results flagged for a closer look

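In 2 Hox genes the libraries of the tissues lay in opposite orders at the 2 stages, without overlap at either. The share of all genes with such a reversal was not counted. Of all genes tested, 12.6% lay higher in epithelium without overlap at E11.5, and 17.3% lay lower at E13.5. Hoxd4 had a mean of 0.034 FPKM in E11.5 epithelium, from 11, 13 and 4 counts against 0, 3 and 0 in mesenchyme, and at E13.5 it lay below all mesenchyme libraries. Its E11.5 order rests on counts that, but for the 13, lie under the limit of 12. Hoxd9 had a mean of 0.104 FPKM in E11.5 epithelium, from 8, 21 and 32 counts against 0, 0 and 3, and lay below all mesenchyme libraries at E13.5. Neither gene passed the count filter at E11.5, so the tissue difference of that stage was not tested alone. The interaction missed the threshold for both (edgeR adjusted p = 0.159 for Hoxd4 and 0.0601 for Hoxd9). Both passed it in the fit without the E13.5 epithelium replicate 3 library (edgeR adjusted p = 0.0495 and 0.00729).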

How the results depend on the processing

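No Hox gene called in any comparison changed direction under any alternative run. Shares of all genes called are given for the main fits only, so counts from the alternatives have no such share beside them. Of the 4 Hox genes called higher in E11.5 epithelium, 4 stayed called with DESeq2, with a covariate for library names that carry no number and with 1 fit over 12 libraries, which called 9, 8 and 8. Leaving out 1 library gave 3 to 8. At E13.5, 2 genes were called higher in epithelium, against 4 with DESeq2 and 0 with no filter on low counts and with limma on log2(FPKM + 0.5) or log2(FPKM + 0.1), and 0 to 7 when 1 library was left out. None was called lower there, against 3 with DESeq2 and 0 to 3 when 1 library was left out. Between the stages in epithelium 6 were called higher, against 12 with DESeq2, 2 with no filter and 3 with limma on log2(FPKM + 0.1), and 0 to 11 when libraries were left out, with 0 to 1 called lower. In mesenchyme 15 were called higher, against 9 with limma at either addend, where only 9 members were tested, and 12 to 17 when 1 library was left out, with 0 to 1 called lower. For the interaction 0 were called, against 6 with DESeq2, 1 with limma on log2(FPKM + 0.5) and 1 with the covariate, and 0 to 6 when libraries were left out. Leaving out replicate 3 of both epithelium groups, chosen after seeing the data, gave the 11 higher and 1 lower between the stages and the 6 of the interaction. With the covariate for unnumbered library names, 3 were called higher in E13.5 epithelium than in mesenchyme. Between the stages it gave 5 higher in epithelium and 16 in mesenchyme. The cause of these differences was not tested.

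Neither kind of replicate number paired the libraries throughout. Deviations from the group means correlated at -0.21 to 0.17 for the 12 pairs with the same number in the title. For the 12 pairs with the same number in the library name they correlated at -0.11 to 0.27. Of these, 2 and 5 pairs were over 0.1. The E11.5 tissue pairs matched by library name were at 0.12, 0.10 and 0.27, the last with no number in either name. An unmatched E11.5 tissue pair reached 0.16. With a replicate block by title or by library name, the genes called higher in epithelium at E11.5 numbered 5 and 6. They numbered 0 and 0 in the E13.5 tissues, 2 and 2 between the stages in epithelium and 14 and 14 in mesenchyme. The block gave 1 interaction call by title, Hoxd9, and 0 by library name. Hoxc4 and Hoxc5 were the genes called in epithelium under both blocks.

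The number of Hox genes at 1 FPKM or more was 4, 1, 10 and 7 in E11.5 epithelium, E11.5 mesenchyme, E13.5 epithelium and E13.5 mesenchyme. It was 7 in E11.5 epithelium at a threshold of 0.5 FPKM and 2, 0, 4 and 4 at 2 FPKM. Leaving out 1 library gave 3 to 4, 0 to 1, 10 to 11 and 6 to 9, and summed levels of 20.5 to 24.1, 2.14 to 2.79, 27.1 to 30.4 and 24.5 to 35.3 FPKM. DESeq2 size factors in place of TMM shifted the median of all genes by at most 0.04 on the log2 scale in size and changed no count. Depth limits the low members: a gene under 12 counts in a library cannot be told from background, and estimated counts from coverage carry rounding. With 3 libraries a group, 1 library that stands apart decides several calls in epithelium.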
